A study of Mus musculus with 72 samples.

Results

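The CDP-choline and CDP-ethanolamine pathway, the route by which cells build phosphatidylcholine and phosphatidylethanolamine from free choline and ethanolamine, was followed through 9 genes. They were chosen by symbol: Slc44a1, Chka, Chkb, Etnk1, Etnk2, Pcyt1a, Pcyt2, Cept1 and Chpt1. All 9 were present among the 22823 genes of the liver count table and the 15759 genes of the table for the suprachiasmatic nucleus (SCN), the hypothalamic seat of the central circadian clock, and all 9 passed the filter on low counts in both tissues. The RNA-seq libraries came from single-housed C57BL/6 mice, bought at 8 to 12 weeks of age, fed either MCD chow, which lacks methionine and choline, or an isocaloric control diet. All mice, controls included, spent 10 days in a light-dark cycle on their diet and were then sampled in constant darkness on day 11, at circadian times (CT) 0, 4, 8, 12, 16 and 20 h. Tissue, diet and time gave 24 groups of 3 libraries (2 male, 1 female), hence 18 libraries per diet in each tissue and 72 in all. Liver RNA came from pieces of the left lobe and SCN RNA from laser-microdissected brain sections, so both are mixtures of cells, and fewer cells of a type cannot be told apart from less RNA per cell.

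In this pathway choline or ethanolamine is carried into the cell, phosphorylated by a kinase, coupled to cytidine diphosphate (CDP) by a cytidylyl transferase, and finally transferred to diacylglycerol. Slc44a1 encodes a choline transporter of the plasma membrane and mitochondria. Chka and Chkb encode choline kinases that can also accept ethanolamine, and Etnk1 and Etnk2 encode ethanolamine kinases. Pcyt1a encodes the choline-phosphate cytidylyl transferase, which sets the pace of phosphatidylcholine synthesis, and Pcyt2 its ethanolamine counterpart. Chpt1 transfers phosphocholine, and Cept1 transfers phosphocholine or phosphoethanolamine. The liver has a further route to phosphatidylcholine, the methylation of phosphatidylethanolamine by Pemt, which takes its methyl groups from methionine. A diet without methionine and choline therefore withdraws the inputs of both routes, and MCD feeding is a widely used model of fatty liver.

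The stretches just upstream of 3 members are shown because Chka and Slc44a1 had the largest fitted daily swings among members called rhythmic in control liver with all libraries, and because Pcyt1a was the only matched member whose windows held the sterol element searched for. Each is the 160 bases before the RefSeq start of the gene on its own strand (all 3 lie on the plus strand, build GRCm38.p6), with motif matches in capitals. In Chka, at chr19:3851613-3851772, the capitals mark CCAAT boxes and GC boxes. In Slc44a1, at chr4:53440253-53440412, they mark GC boxes. In Pcyt1a, at chr16:32430761-32430920, they mark the sterol element and overlapping GC boxes.
Chka: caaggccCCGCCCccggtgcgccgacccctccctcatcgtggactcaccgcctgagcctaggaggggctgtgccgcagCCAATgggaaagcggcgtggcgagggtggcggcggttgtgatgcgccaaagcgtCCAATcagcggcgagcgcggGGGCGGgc
Slc44a1: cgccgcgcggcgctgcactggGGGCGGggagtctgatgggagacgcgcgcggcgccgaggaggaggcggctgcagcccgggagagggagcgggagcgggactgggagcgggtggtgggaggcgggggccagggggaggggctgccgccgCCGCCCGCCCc
Pcyt1a: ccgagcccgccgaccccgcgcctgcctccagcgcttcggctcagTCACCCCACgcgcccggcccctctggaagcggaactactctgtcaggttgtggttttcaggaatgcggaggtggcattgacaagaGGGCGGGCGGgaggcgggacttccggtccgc
RefSeq promoter windows (250 bases before to 50 after each start) were matched for 8 of the 9 members, which had 13 windows between them. The E-box CACGTG, searched on both strands, was in no member window and in 7.15% of all 32851 windows. The composite element TGATGNAA was likewise in no member window and in 3.97% of all windows. The sterol element TCACNCCAC was in a pair of overlapping Pcyt1a windows, with its start 116 bases before the nearest start site, and in 1.24% of all windows. Further motifs were added after these were searched. The GC box GGGCGG was in 35.7% of all windows, and in all member windows except those starting at chr3:106543097 (Cept1) and chr16:32430980 (Pcyt1a). CCAAT was in 37.4% of all windows and in windows of Cept1, Chka, Chkb and Chpt1. The nuclear receptor half-site AGGTCA was in 1 Pcyt1a window and in 16.3% of all. The D-box TTATGTAA (0.938% of all) and the cyclic AMP response element TGACGTCA (1.79%) were in no member window. A match describes letters and not binding, and a missing match covers these windows alone.

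Depth was 52.6 to 86.7 M gene counts in the liver libraries and 23.3 to 79.8 M in those of the SCN. Levels are counts per 1 M (CPM), scaled by TMM factors, which set the libraries level on most genes. All 6 hepatocyte markers were measured in liver, where 3 were called lower on MCD and none higher (median log2 change -0.13). Summed marker levels in this paragraph are scaled by library totals alone, while the calls use TMM factors. The summed hepatocyte level had a median of 82677 CPM on the control diet (67322 to 103390.0) and 103325 CPM on MCD (71376 to 121152). Liver TMM factors were higher on MCD (median 1.09 against 0.894 in controls), so these sums are not on the scale of the calls. All 8 SCN neuron markers were in the SCN table (1668 to 4257 CPM summed). In liver, 7 of the 8 macrophage markers measured were higher on MCD, with summed levels of 247 to 755 CPM on the control diet and 405 to 988 CPM on MCD, and 2 of 6 stellate cell, 2 of 4 liver endothelium and 1 of 5 cholangiocyte markers measured were higher. Gpnmb of the macrophage list and Col1a1 of the stellate list were absent from the liver table. Their part in the results on members was not tested. The liver libraries also split by the mitochondrial transcript mt-Nd6 into a low kind (41.6 to 119 CPM, 8 control and 13 MCD libraries) and a high kind (414 to 925 CPM, 10 control and 5 MCD). One liver library went against its label: the first of the control males at CT08, whose columns share a name. On a score that subtracts the mean centred log2 level of genes called lower on MCD from that of genes called higher, it lay at 0.50, within the MCD libraries (0.20 to 1.09) and above the other 17 control libraries (-0.87 to -0.37). Liver results on members whose call or direction turned on it are given with and without it, except the tests on summed Chkb and Gm44502 counts, which were not refitted without that column. The exon-bin files carry replicate numbers, and which of them holds that library is not known. The labels do not name the mouse behind a library, so p-values measure the spread between libraries.

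Per kilobase of exon, Pcyt2 and Etnk2 of the ethanolamine arm stood highest in liver on the control diet, and its other kinase, Etnk1, lowest of the 9. The length used is the union of all annotated exons of a gene, from 3061 bases for Chkb to 14151 for Etnk1. It can exceed the transcript expressed, so the order between genes depends on it. On the control diet Pcyt2 was at 118 ± 12.97 CPM per kb (SD, n = 18), followed by Etnk2 at 52.4 ± 18.4. Cept1, Chpt1, Pcyt1a and Chkb came next, at 17.7 ± 2.56, 15.6 ± 4.49, 13.3 ± 2.02 and 11.5 ± 2.28 CPM per kb, and these neighbours in the order did not differ beyond their spread. Chka was at 8.26 ± 5.24, Slc44a1 at 7.54 ± 2.37 and Etnk1 at 6.63 ± 0.96 CPM per kb, also within each other's spread. In CPM without the length, Pcyt2 (514 ± 56.4) and Etnk2 (239 ± 83.9) were again highest. Etnk1 (93.8 ± 13.5) then lay above Cept1 (55.1 ± 7.98), Slc44a1 (52.4 ± 16.4) and Chkb (35.2 ± 6.97), and Chka (99.3 ± 63.0) above Chkb. In the SCN the order was another one. Etnk1 was first, at 18.4 ± 2.44 CPM per kb, with Cept1 at 16.995 ± 1.82 and Chpt1 at 13.1 ± 1.80, while Etnk2 was last at 1.66 ± 0.53 and Chka was at 2.20 ± 0.35 CPM per kb.

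The ethanolamine kinases ran in opposite directions between the tissues. Mean Etnk2 on the control diet was 31.6 times as high in liver as in SCN, and mean Etnk1 was 2.77 times as high in SCN as in liver. Pcyt2 was 11.3 times and Pcyt1a 2.35 times as high in liver, and for these 4 genes the 18 control libraries of one tissue did not overlap those of the other. The same was so for 60.8% of the 14216 genes in both tables, so a share of 4 in 9 was not above the background. The ranges of Chka, Chkb, Cept1, Chpt1 and Slc44a1 overlapped. The tables of the tissues were normalized separately, so these ratios are descriptions.

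**Figure D1:**
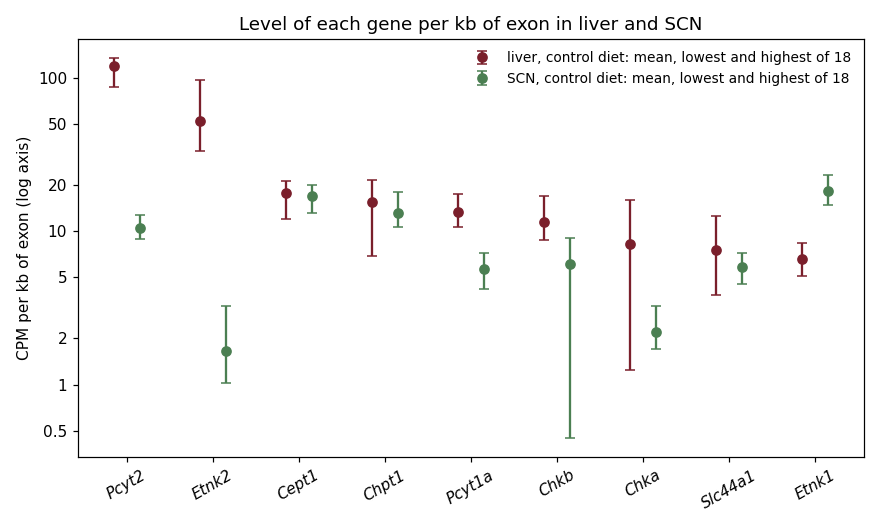
Level of each of the 9 genes in CPM per kb of exon (log axis) on the control diet; points are means and bars run from the lowest to the highest of 18 libraries in liver and in SCN. Pcyt2 and Etnk2 sit far higher in liver and Etnk1 higher in SCN, with no overlap of the bars.

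The first question was which steps of the pathway changed in liver when its dietary inputs were withdrawn. On the mean over the 6 times, 3 of the 9 members were called lower on MCD and none higher. Among all 20249 genes tested, 46.6% were called, 25.3% as higher and 21.2% as lower. The share of 3 in 9 lay below that of calls in either direction and above that of calls as lower. The members were not tested as a set, and their count changed without the first CT08 control male, as given below. The called members were the transporter Slc44a1, the cytidylyl transferase Pcyt2 and the kinase Etnk1. The median log2 change was -0.15 over the members and 0.02 over all genes. A call here is an adjusted p under 0.05 in edgeR's quasi-likelihood test with Benjamini-Hochberg adjustment over all genes.

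Slc44a1, the entry step, had the largest fall. Its level ran from 26.8 to 87.8 CPM (median 51.8) in the 18 control libraries and from 23.0 to 45.1 CPM (median 32.6) in the 18 MCD libraries. All 18 MCD libraries lay below the control median, and 12 control libraries lay above the highest MCD library. The log2 change was -0.66 ± 0.06 (SE, adjusted p = 6.71e-10), and without the first control male at CT08 it was -0.69. At CT20, where control levels were highest, the control libraries read 70.5, 73.0 and 87.8 CPM and the MCD libraries 40.0, 41.3 and 45.1 CPM. At CT12 the control libraries read 31.1, 29.0 and 43.5 CPM and the MCD libraries 23.0, 25.1 and 30.7 CPM. That was the only time at which the diets overlapped.

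Slc44a1 was called lower at 5 single times, with log2 changes from -0.87 ± 0.14 at CT20 (adjusted p = 0.000219) to -0.48 ± 0.14 at CT16 (adjusted p = 0.021). Of all genes tested, the share called was 12.6% for CT00, 18.2% for CT04, 1.30% for CT08, 15.2% for CT12, 12.5% for CT16 and 11.3% for CT20. At CT12 the change was -0.39 ± 0.14 with an adjusted p of 0.0515, and of 0.0305 without the first CT08 control male. At CT08 it was -0.53 ± 0.14 (adjusted p = 0.047), or -0.67 without that male (adjusted p = 0.00428), and that call was kept in only 15 of the 36 fits that left out one library, with the highest adjusted p (0.353) without the second control male at CT08. It was also lost with limma-voom (0.064), with no filter on low counts (0.0533), with no sex term (0.0872), with a term for the mt-Nd6 kind (0.0681) and with library totals alone (0.176). The CT16 call was lost without control replicate 2 (0.0815), control replicate 3 (0.0538) or MCD replicate 3 (0.142) of that time and with library totals alone (0.336). The fall did not differ between times by the test of diet by time (adjusted p = 0.341). By that test no member was called in edgeR, none had an unadjusted p under 0.05 and none was called by DESeq2 or limma-voom, against 0.909% of all genes.

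Pcyt2, the most abundant member per kb of exon, fell as well. It ran from 379 to 585 CPM (median 521) on the control diet and from 262 to 490.5 CPM (median 396) on MCD. The log2 change was -0.41 ± 0.06 (adjusted p = 1.06e-05), and all 18 MCD libraries lay below the control median. The MCD libraries lay below all control libraries at 5 of the 6 times. The exception was CT08, where the controls read 379, 445 and 518 CPM and the MCD libraries 490.5, 405.2 and 405.1 CPM. Here the lowest control was again the male that went against its label, and without it the change over all times was -0.43. Pcyt2 was called at CT00, CT04, CT16 and CT20, with log2 changes of -0.50, -0.48, -0.61 and -0.52 (SE 0.16 each) and adjusted p of 0.0375, 0.0342, 0.0114 and 0.0326. These single-time calls rested on 3 libraries a side. Each was lost without some libraries of its own time: at CT00 without control replicate 1 or 3 or any MCD replicate (0.0662 to 0.178), at CT04 without any control replicate or MCD replicate 1 or 3 (0.0614 to 0.25), at CT16 without MCD replicate 3 (0.0805), and at CT20 without any control replicate or MCD replicate 1 or 2 (0.0524 to 0.131). With library totals alone those at CT00, CT04 and CT20 were lost (0.11 to 0.215).

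**Figure D2:**
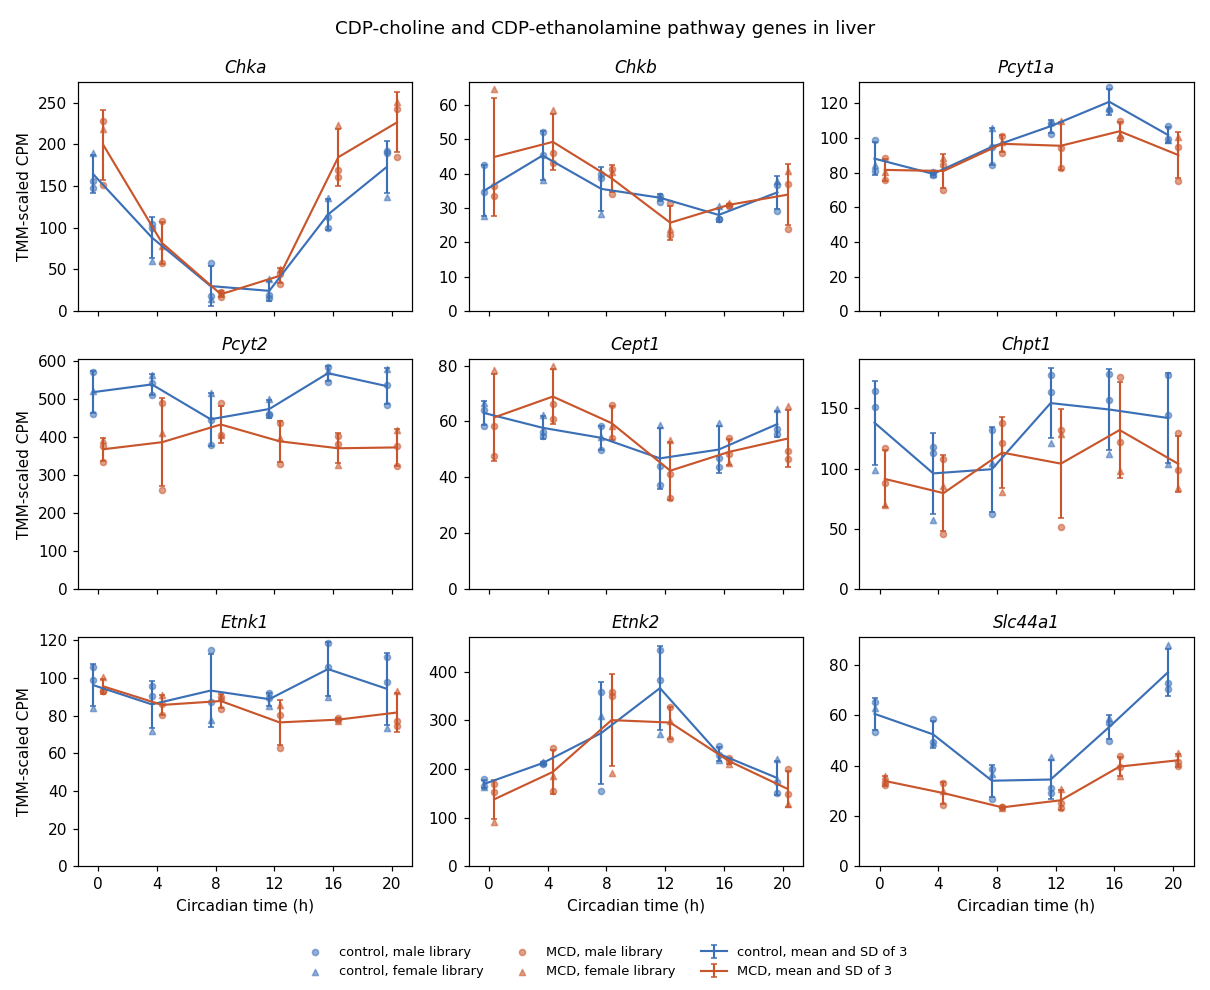
TMM-scaled CPM of the 9 genes in liver against circadian time in hours (points, libraries, with triangles for females; lines, mean and SD of 3 libraries per diet and time). Slc44a1 and Pcyt2 run lower on MCD than on the control diet, and Chka swings between about CT08 to CT12 and CT20 to CT00 on both diets.

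Pcyt1a, the choline-side counterpart of Pcyt2, was at 98.5 ± 14.96 CPM on the control diet and 91.4 ± 11.7 on MCD (SD, n = 18). Its log2 change of -0.10 ± 0.04 was not called in edgeR with TMM scaling (adjusted p = 0.0583). It was -0.11 and called by DESeq2 (adjusted p = 0.0266), in edgeR with DESeq2's size factors (0.036), and without the first CT08 control male (0.0448). The ratio of Pcyt2 to Pcyt1a within a library does not depend on how libraries are scaled. Its mean log2 value was 2.39 ± 0.24 on the control diet and 2.08 ± 0.21 on MCD (SD, n = 18 each), a difference of -0.31. A two-sided permutation test of diet within circadian time gave p = 4e-05, and 0.00032 after adjustment over the 8 ratio tests. Without the first CT08 control male the difference was -0.33 (adjusted p = 8e-05, from the smallest p that the permutations can give). The mean ratio of CPM was higher on the control diet at each of the 6 times, which were not tested singly. It was furthest apart at CT04, at 6.81 ± 0.32 on the control diet and 4.73 ± 1.02 on MCD (SD, n = 3). At CT08 it was 4.73 ± 0.65 and 4.48 ± 0.36, and the mean of the 2 CT08 controls other than the first male was 5.09. It was 5.90 ± 0.26 and 4.55 ± 0.66 at CT00, 4.45 ± 0.19 and 4.10 ± 0.53 at CT12, 4.71 ± 0.20 and 3.57 ± 0.33 at CT16, and 5.27 ± 0.53 and 4.15 ± 0.16 at CT20. The other 3 ratios tested in liver were not called: Chka over Chkb differed by 0.25 (adjusted p = 0.29), Etnk2 over Etnk1 by -0.00049 (adjusted p = 0.997) and Chpt1 over Cept1 by -0.33 (adjusted p = 0.261), all by the same permutation test. Without that male none of the 3 was called either, with the lowest adjusted p (0.0929) for Chpt1 over Cept1 at -0.39.

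Among the kinases, the calls of Chka and Etnk2 turned on the odd library. The level of Chka ran from 14.9 to 192 CPM (median 102) on the control diet and from 16.4 to 251 CPM (median 129.5) on MCD. With all libraries the log2 change was 0.24 ± 0.15 (adjusted p = 0.205), and without the first CT08 control male it was 0.38 (adjusted p = 0.00671). At CT08 that library read 57.7 CPM, and the other controls of that time read 17.8 and 14.9 CPM. At CT16 all 3 MCD libraries, at 161, 169 and 224 CPM, lay above the 3 controls, at 113, 99.2 and 136 CPM, and the change there was 0.67 ± 0.37 (adjusted p = 0.243). Of the single times, Chka was called at CT12 without the odd library (0.81, adjusted p = 0.0387) and not with it (0.81 ± 0.37, adjusted p = 0.145). Chkb, the other choline kinase, was at 35.2 ± 6.97 CPM on the control diet and 37.2 ± 11.2 on MCD (log2 change 0.05 ± 0.09, adjusted p = 0.644).

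The odd library was singled out after seeing the data, on genes called for diet, so fits without it lean towards more diet calls. Without it 7 of the 9 members were called in liver, where 48.6% of all genes were called. Beside Slc44a1, Pcyt2, Pcyt1a, Chka and Etnk1 (-0.14, adjusted p = 0.0442), these were Chpt1 (-0.35, adjusted p = 0.0195) and Etnk2 (-0.22, adjusted p = 0.0326). With it, the log2 change of Chpt1 was -0.30 ± 0.13 (adjusted p = 0.0693) and that of Etnk2 -0.16 ± 0.10 (adjusted p = 0.213). At CT08 the library held 61.9 CPM of Chpt1 and 156 CPM of Etnk2, and its fellow controls held 132 and 105 CPM of Chpt1 and 358 and 309 CPM of Etnk2. Chkb and Cept1 were called under neither setting. At single times the library also decided the call of Etnk1 at CT16, which was -0.42 ± 0.14 with it (adjusted p = 0.0507) and -0.44 ± 0.13 without it (adjusted p = 0.0259). Some signs also turned in single-time tests that were called under neither setting. At CT08 the log2 change with and without it was -0.59 and 0.33 for Chka, 0.14 and -0.16 for Chpt1, 0.10 and -0.21 for Etnk2, and -0.083 and 0.073 for Etnk1, and at CT04 that of Etnk1 was 0.0017 and -0.00016.

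Etnk1 differed between the sexes in its response. In the 12 control males it ran from 87.4 to 118 CPM (median 98.3) and in the 12 MCD males from 63.0 to 93.3 CPM (median 80.2). In the 6 control females it ran from 71.9 to 90.0 CPM (median 80.6) and in the 6 MCD females from 77.1 to 100.2 CPM (median 90.1). Levels were thus lower on MCD in males at 6 of 6 times and higher on MCD in females at 5 of 6 times. The diet effect in females minus that in males was 0.46 ± 0.09 on the log2 scale (adjusted p = 0.00338), and 1.77% of all genes were called in this test. It was 0.44 (adjusted p = 0.00203) without the first CT08 control male, and it was called with each of the 36 libraries left out in turn. Without all libraries numbered replicate 1, or all numbered replicate 2, it was not called (adjusted p = 0.0944 and 0.128). In the male libraries alone the diet effect was -0.32 (adjusted p = 0.000227).

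For Etnk1 over both sexes the log2 change was -0.15 ± 0.06 (adjusted p = 0.0334), a mean of these unlike responses. That call was lost without control replicate 2 of CT00 or of CT04, control replicate 1 of CT16 or of CT20, or MCD replicate 1 of CT08, with adjusted p of 0.0549 to 0.0636, and over replicate numbers without replicate 1 or 2 (0.477 and 0.453). Without both control males of CT00 it was lost as well, in the gene table (-0.13, adjusted p = 0.117) and on summed exon-bin counts (-0.13, adjusted p = 0.106). It was also lost with a term for the mt-Nd6 kind (-0.14, adjusted p = 0.0627) and with library totals alone. Each female library carries replicate number 3, so sex and whatever else that number marks cannot be told apart. Mean levels of Slc44a1 and Pcyt2 were lower on MCD in both sexes. Slc44a1 was at 50.3 ± 15.9 CPM in control males, 31.9 ± 7.81 in MCD males, 56.5 ± 18.2 in control females and 33.5 ± 7.42 in MCD females (SD, n = 12 or 6). The difference of its diet effect between the sexes was -0.10 ± 0.12 (adjusted p = 0.812), with a 95% interval of -0.35 to 0.14.

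**Figure D3:**
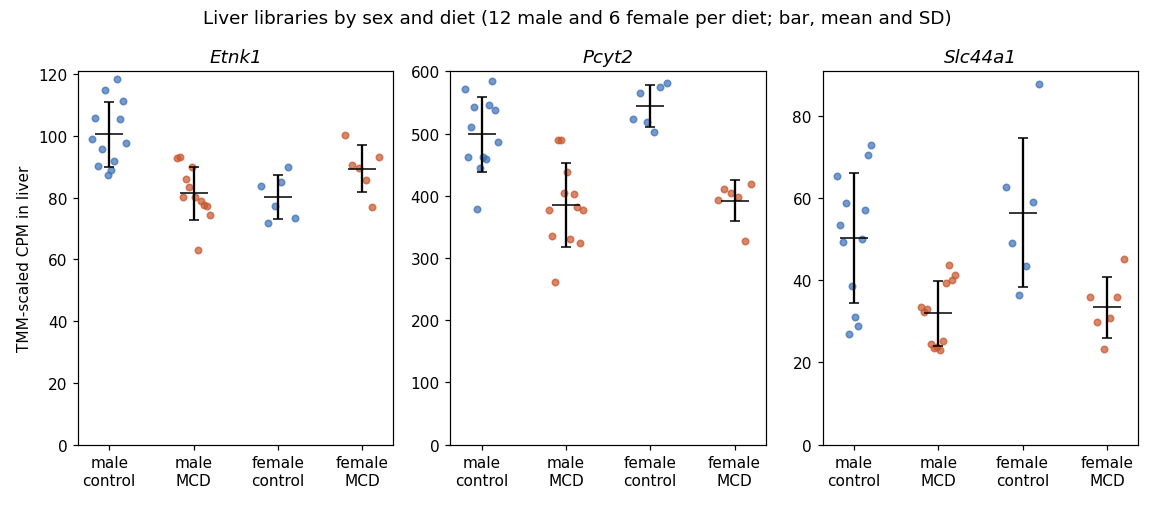
TMM-scaled CPM of Etnk1, Pcyt2 and Slc44a1 in liver by sex and diet (points, 12 male or 6 female libraries per diet; bars, mean and SD). Etnk1 is lower on MCD in males and not in females, while Pcyt2 and Slc44a1 are lower on MCD in both.

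With all libraries and TMM scaling, neither enzyme of the last step was called for diet in edgeR. Chpt1 was called by DESeq2 (-0.31, adjusted p = 0.04) and, as given above, without the first CT08 control male. Cept1, which serves both arms, was at 55.1 ± 7.98 CPM on the control diet and 55.8 ± 12.3 on MCD (log2 change 0.01 ± 0.06, adjusted p = 0.954, 95% interval -0.11 to 0.12). Chpt1, which serves the choline arm, was at 130 ± 37.4 and 104.0 ± 32.6 CPM (SD, n = 18). With all libraries Cept1 was the only member called between the sexes in liver in edgeR, higher in females by 0.26 ± 0.06 (adjusted p = 0.00425), a test in which 9.44% of all genes were called. On the control diet its mean was 52.2 ± 7.84 CPM in males and 61.0 ± 4.42 CPM in females. Chpt1 was lower in females by a log2 difference of -0.39 ± 0.14, which was not called (adjusted p = 0.0905) and was by DESeq2 (-0.40, adjusted p = 0.0327). Without the first CT08 control male it was -0.44 ± 0.13 and was called (adjusted p = 0.0281).

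The kind of library and the scaling touched these results unevenly. Fitted within the low mt-Nd6 kind alone, where 23.5% of all genes were called, Slc44a1 changed by -0.62 ± 0.08 (adjusted p = 0.000132) and Pcyt2 by -0.40 ± 0.10 (adjusted p = 0.00807). Within the high kind, where 24.5% of all genes were called, Slc44a1 changed by -0.71 ± 0.08 (adjusted p = 0.00029) and Pcyt2 by -0.56 ± 0.12 (adjusted p = 0.00706). Etnk1 was called in neither kind (-0.16 and -0.18, adjusted p = 0.202 and 0.122). The odd library is of the low kind, and without it 3 more members were called there, where 33.9% of all genes were: Chka at 0.74 ± 0.11 (adjusted p = 0.000106, against 0.36 ± 0.24 and 0.31 with it), Etnk2 at -0.34 ± 0.10 (adjusted p = 0.0187) and Pcyt1a at -0.18 ± 0.06 (adjusted p = 0.0286). Chpt1 was called within the high kind alone (-0.55 ± 0.18, adjusted p = 0.0462). TMM factors had a median of 0.894 in control and 1.09 in MCD liver libraries. When libraries were scaled by their totals alone, the median log2 change of all genes moved to 0.27, and 60.1% of them were called. Slc44a1 was then at -0.40 and Pcyt2 at -0.16, both still called lower, while Chka (0.48), Cept1 (0.25), Chkb (0.31) and Pcyt1a (0.15) were called higher and Etnk1 (0.10) and Etnk2 (0.10) were not called. The direction of Slc44a1 and Pcyt2 was the same under either scaling, and that of Pcyt1a, Etnk1 and Etnk2 was not.

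Transcript structure was read from exon bins, the pieces into which annotated exons are divided for counting. Pcyt2 was the only member called for a change in bin usage with diet in liver (adjusted p = 0.000104, Simes test over 38 bins, 34 libraries), a test in which 3.45% of the 11694 genes were called. The lowest bin p was that of bin 37 of the file's numbering, a minor bin that held 0.238 ± 0.042% of the gene's bin counts on the control diet and 0.368 ± 0.068% on MCD (SD, n = 16 and 18). Its log2 change relative to the gene's other bins was 0.60, and the adjusted p of the gene was 0.236 without the female libraries and 3.06e-05 without control replicate 1 of CT08. Which exon the bin belongs to was not analysed here. In the SCN no member was called (adjusted p = 1 for each), only 1 of the 147 member bins tested had an unadjusted p under 0.05, and 0.0387% of all genes were called.

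The second question was how the members follow the circadian day. In liver on the control diet 5 of the 9 had a called 24 h rhythm, where 17.8% of all genes did. On MCD 6 of 9 had one, where 28.2% of all genes did. Chka swung most: fitted peak to trough was 8.27-fold with a peak at 21.8 h on the control diet (adjusted p = 9.58e-07), and 11.4-fold with a peak at 20.7 h on MCD (adjusted p = 1.23e-07). On the control diet Chka read 190, 192 and 137 CPM at CT20 and 15.4, 19.4 and 38.4 CPM at CT12. On MCD it read 185, 243 and 251 CPM at CT20 and 16.4, 22.6 and 21.9 CPM at CT08. Chka over Chkb thus ranged from 0.736 ± 0.358 at CT12 to 5.12 ± 1.46 at CT20 on the control diet (ratio of CPM, SD, n = 3). At CT08 it was 0.812 ± 0.551, and 0.460 and 0.529 in the 2 controls other than the first male, so that without that library CT08 was the lowest time. Without the first CT08 control male, whose Chka level is given above, the control swing of Chka was 12.3-fold (adjusted p = 4.98e-09) and that on MCD 11.3-fold, so the order of the diets turned. The count of members called was again 5 on the control diet, where 17% of all genes were, and 6 on MCD, where 30.2% were.

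Slc44a1 peaked close to Chka, at 21.4 h with a 2.24-fold swing on the control diet (adjusted p = 1.96e-07) and at 19.8 h with a 1.79-fold swing on MCD (adjusted p = 1.4e-05). The fitted rhythms did not pass the test of a difference between the diets (adjusted p = 0.0922). Etnk2 ran nearly opposite to Chka, peaking at 11.0 h with a 2.01-fold swing on the control diet (adjusted p = 0.00318) and at 10.6 h with a 2.27-fold swing on MCD (adjusted p = 0.000352). Without both control males of CT00 the control call of Etnk2 was lost, in the gene table (0.0686) as on summed exon-bin counts (0.0679). Across the 36 liver libraries the log2 levels of Chka and Etnk2 had a Pearson correlation of -0.79. It was -0.65 for deviations from the 12 group means, in which the libraries share depth and scaling. Without the first CT08 control male these were -0.81 and -0.46. At CT12 the control libraries held 383, 444 and 273 CPM of Etnk2, and at CT00 they held 165, 179 and 164 CPM.

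Pcyt1a and Cept1 also had called rhythms on both diets, and Chkb on one. Pcyt1a peaked at 15.3 h with a 1.46-fold swing on the control diet (adjusted p = 0.000337) and at 13.8 h with a 1.27-fold swing on MCD (adjusted p = 0.0145, and 0.0562 without MCD replicate 3 of CT12). Cept1 peaked at 0.537 h (1.33-fold, adjusted p = 0.0304) and on MCD at 2.56 h (1.502-fold, adjusted p = 0.0011). Its control call was lost with no sex term (adjusted p = 0.14) and without control replicate 1 or 2 of CT00 or of CT12, replicate 1 of CT04 or replicate 1 of CT16 (0.0506 to 0.116). Without both control males of CT00, whose exon-bin files are truncated, it was 0.264 in the gene table and 0.227 on summed exon-bin counts. Chkb was called on MCD alone, peaking at 2.40 h with a 1.80-fold swing (adjusted p = 0.00198; control adjusted p = 0.0926), and the difference between the diets was not called (adjusted p = 0.589). Pcyt2, Chpt1 and Etnk1 were called on neither diet. No member was called for a difference in rhythm by edgeR, DESeq2 or limma-voom, and 1, Slc44a1, had an unadjusted p under 0.05 in edgeR, against 4.87% of all genes called.

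**Figure D4:**
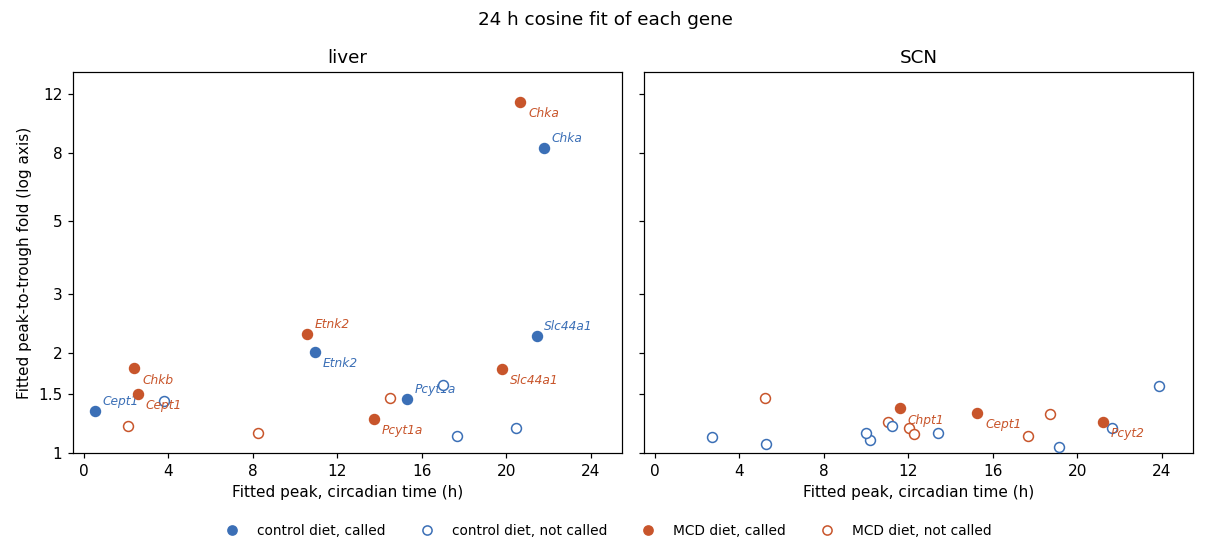
Fitted 24 h rhythm of the 9 genes in liver and SCN: peak as circadian time in hours against peak-to-trough fold (log axis), by diet, with filled and named points for genes called at an adjusted p under 0.05. Chka stands at 8.27-fold and 11.4-fold in liver, and the widest called SCN swing is 1.36-fold, that of Chpt1.

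In the SCN, the tissue that holds the central clock, no member was called for diet, and none had an unadjusted p under 0.05 or was called by DESeq2 or limma-voom, while 0.0635% of the 15759 genes were called in edgeR (0.0381% higher and 0.0254% lower). At single times none of the 54 tests on members was called by edgeR, DESeq2 or limma-voom and 1 had an unadjusted p under 0.05 in edgeR. The share of all genes called was 0.0444% at CT04, 0.00635% at each of CT00, CT16 and CT20, and 0% at CT08 and CT12. Slc44a1 ran from 31.7 to 49.7 CPM (median 41.3) on the control diet and from 33.2 to 51.8 CPM (median 38.7) on MCD, a log2 change of -0.05 ± 0.06 with a 95% interval of -0.17 to 0.07. Pcyt2 ran from 38.7 to 55.7 CPM (median 44.7) and from 34.4 to 51.2 CPM (median 43.7), a change of -0.07 ± 0.04 with an interval of -0.15 to 0.02. For both genes these ranges over all times overlapped between the diets. At single times all MCD libraries lay below all control libraries at CT04 for Slc44a1, and at CT12 and CT20 for Pcyt2. The diets overlapped at the other times, and at none did all MCD libraries lie above all controls. The estimate for Cept1 was -0.08 ± 0.04, and the intervals of all 9 members covered 0, the widest being that of Etnk2 (-0.66 to 0.30).

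The difference of the diet effect between the tissues was tested in one model of all 72 libraries, which treats liver and SCN libraries as independent although both tissues were dissected from each mouse. It was called for 2 members, with 34.7% of 14491 genes called, and for 4 without the first CT08 control male, with 38.3% called. The effect in liver minus that in SCN was -0.61 ± 0.08 for Slc44a1 (adjusted p = 6.91e-08) and -0.34 ± 0.07 for Pcyt2 (adjusted p = 0.00028). For Etnk1 the difference was -0.17 ± 0.09 (adjusted p = 0.112) and for Chka 0.24 ± 0.16 (adjusted p = 0.266). The further calls without that library were those of Chka (0.40 ± 0.13, adjusted p = 0.0114) and Chpt1 (-0.36 ± 0.14, adjusted p = 0.0325).

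**Figure D5:**
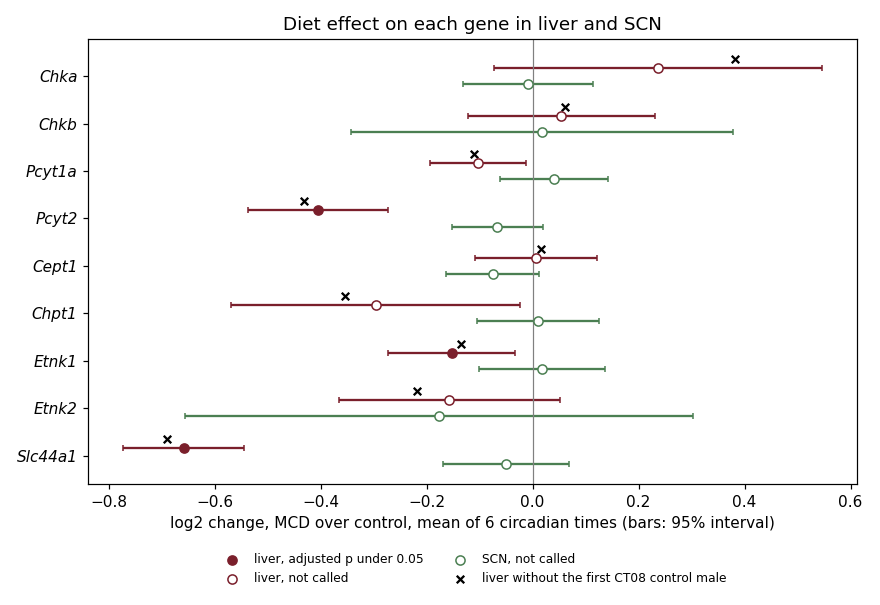
Log2 change on MCD against the control diet, mean of 6 circadian times, for each of the 9 genes in liver and SCN (points with 95% intervals, filled where the adjusted p was under 0.05; crosses, liver without the first CT08 control male). Slc44a1 at -0.66 and Pcyt2 at -0.41 lie well below 0 in liver, while every SCN interval covers 0.

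For rhythm in the SCN, no member was called on the control diet by edgeR, DESeq2 or limma-voom (1 had an unadjusted p under 0.05 in edgeR, and 15.1% of all genes were called). On MCD 3 were called, where 16.1% of all genes were. These were Cept1 (peak 15.3 h, 1.32-fold, adjusted p = 0.00434), Chpt1 (11.6 h, 1.36-fold, adjusted p = 0.0176) and Pcyt2 (21.2 h, 1.24-fold, adjusted p = 0.0277). On summed exon-bin counts Pcyt2 was not called (0.0935), and with no sex term Chpt1 was not (0.0506). Pcyt2 had nearly the same fit on the control diet (21.6 h, 1.19-fold, adjusted p = 0.0935), and no member's rhythm differed between the diets (adjusted p = 1 for each, with no unadjusted p under 0.05 and no call by DESeq2 or limma-voom, against 0.0127% of all genes). The calls rested on few libraries: without MCD replicate 3 at CT12 the adjusted p of Chpt1 was 0.117, without MCD replicate 3 at CT00 0.0876, and that of Pcyt2 stayed under 0.05 in 29 of the 36 fits that left out one library (0.0527 to 0.0842 in the others, all without an MCD library of CT00, CT08, CT12 or CT20). Chpt1 was also higher in females in the SCN, by 0.22 ± 0.06 (adjusted p = 0.0195, with 9.89% of all genes called), a call lost without control replicate 3 at CT16 (0.0591) or MCD replicate 3 at CT12 (0.0682). Across the 36 SCN libraries the log2 level of Chpt1 had a Pearson correlation of 0.78 with the summed astrocyte markers, which share library and depth with it. That was the largest in size for any member against the astrocyte, oligodendrocyte and SCN neuron lists. Astrocyte correlations of the other members ran from -0.31 (Etnk2) to 0.41 (Pcyt1a). Chpt1 had 0.42 with oligodendrocyte and -0.08 with SCN neuron markers. The part of astrocyte content in the Chpt1 results was not tested.

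Chkb and Etnk2 need care in the SCN, where the gene table and the exon bins disagreed. Chkb lies at chr15:89426360-89429908 (GRCm38, GENCODE M21, minus strand) and overlaps the read-through gene Gm44502 on the same strand by 3337 bases, and the table splits reads between them. Gm44502 took from 0.0 to 94.6% of their joint counts in the SCN (median 17.4%) and from 0.0 to 44.2% in liver (median 5.09%). In the control female at CT04 the SCN table gave 37 counts to Chkb and 643 to Gm44502. The correlation of Chkb between the table and the summed bins was 0.24 over 34 SCN libraries and 0.74 over 32 liver libraries, while that of the other members was 0.829 or higher in SCN and 0.9889 or higher in liver. With both genes summed, the diet effect was -0.03 ± 0.07 in liver (adjusted p = 0.774) and 0.06 ± 0.07 in SCN (adjusted p = 1). The summed locus also had a called sex-by-diet difference in liver, of 0.46 ± 0.11 (adjusted p = 0.029). For Chkb alone that difference was 0.43 ± 0.17 (adjusted p = 0.244). Etnk2 was listed at 0 in the MCD female at CT04, where the summed bins of that library gave 2.85 CPM and those of the 2 males 5.38 and 8.42 CPM.

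Other genes of the pathway and its neighbours came from a list of 22, of which 20 were in the liver table and tested. On MCD 6 were called higher, 4 lower and 10 were not called, with a median log2 change of 0.07, where 46.6% of all genes were called, 25.3% as higher and 21.2% as lower. Without the first CT08 control male 5 were called higher and 5 lower, Lpin1 among the latter (-0.52, adjusted p = 0.032). Flvcr2, a transporter reported to carry choline, rose from 2.66 ± 1.77 to 8.88 ± 4.45 CPM (SD, n = 18; log2 change 1.79 ± 0.23, adjusted p = 6.54e-07). Phospho1, a phosphatase of phosphocholine and phosphoethanolamine, rose from 1.71 ± 1.20 to 6.25 ± 6.27 CPM (log2 change 1.498 ± 0.27, adjusted p = 5.38e-05). Gpcpd1, which cleaves glycerophosphocholine, fell from 95.7 ± 108 to 48.4 ± 49.9 CPM (log2 change -0.92 ± 0.24, adjusted p = 0.00283). Slc44a3, a relative of Slc44a1, fell from 7.85 ± 1.43 to 5.18 ± 0.97 CPM (log2 change -0.59 ± 0.08, adjusted p = 1.14e-06). Mean levels on MCD were higher at all 6 times for Flvcr2 and Phospho1 and lower at all 6 for Gpcpd1 and Slc44a3.

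Pemt, the methyltransferase of the alternative liver route, was at 235 ± 32.4 CPM on the control diet and 225 ± 30.6 on MCD and was not called (-0.06 ± 0.06, adjusted p = 0.475). Selenoi, the ethanolamine phosphotransferase that completes the ethanolamine arm beside Cept1, was at 74.8 ± 18.6 and 77.3 ± 23.0 CPM (0.03 ± 0.05, adjusted p = 0.687). It was rhythmic on both diets (adjusted p = 2.58e-06 and 1.84e-07). In the SCN 16 of the list were in the table, and none was called for diet in edgeR (lowest adjusted p 0.0749, Etnppl). The log2 change there was -0.02 ± 0.14 for Pemt and -0.02 ± 0.06 for Selenoi (adjusted p = 1 for both).

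The genes whose liver profile was most like that of Slc44a1, the called member with the largest diet effect, were sought among 10373 genes of at least 5 CPM. Over the 36 liver libraries the highest Pearson correlations of log2 CPM were those of Dapk1 (0.94), Coq8a (0.93) and Il11ra1 (0.90), and the lowest was that of Ung (-0.89). Without the first CT08 control male Psen2 (0.90) ranked before Il11ra1 (0.90), and the other 3 kept their ranks. Their diet effects were -0.53 ± 0.06, -1.21 ± 0.11, -0.48 ± 0.05 and 1.94 ± 0.16 on the log2 scale. The libraries share depth, diet and time, so these values describe likeness of profile alone.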

How the data were processed

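The deposited values are unnormalized counts, per the file headers: 1 gene table per tissue and 1 exon-bin file per library. The submitters' processing notes name Trimmomatic, HISAT2, StringTie, DESeq2 and the build GRCm39, with no role given. Positions come from GENCODE M21 (GRCm38). Whether counting used strand is not given in the sources used here. Reads of members that overlap genes of the opposite strand (all but Pcyt2 and Etnk2) are uncertain in that respect. Per the labels, sex is taken from sample titles, although the protocol speaks of males.

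Gene counts were tested with edgeR 4.0.16 (TMM, filterByExpr with minimum count 10, robust quasi-likelihood F test, 12 groups plus sex per tissue, adjustment over all genes). Rhythm was tested by fitting a 24 h cosine wave through the means of the 6 times. Exon usage used diffSpliceDGE on 34 liver and 36 SCN libraries, since 2 liver files (both control males at CT00) were truncated. Ratios used log2 CPM (prior count 2) and 100000 permutations. The tests were tried on simulated data. Alternatives included DESeq2 1.42.0, limma-voom (limma 3.58.1), other scalings and left-out libraries. Other pathway genes were given values where called with a log2 change of at least 0.5, plus Pemt and Selenoi. The members and lists were chosen with earlier results of these data known.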

Additional observations from a re-analysis of the deposited data

Results flagged for a closer look

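The diet effect on Etnk1 in liver differed between females and males by 0.46 on the log2 scale, by the sex-by-diet term of the edgeR fit. It was called with each of the 36 libraries left out in turn. Without replicate 1 or replicate 2 the adjusted p was 0.0944 and 0.128. That leaves 1 male and 1 female per group, except that the control males at CT08, which carry no number, all stay in. On summed exon-bin counts, which lack both control males of CT00, the difference was 0.49 (adjusted p = 0.00814), and with libraries scaled by their totals alone it was 0.45 (adjusted p = 0.0369).

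The diet effects in liver and SCN differed by -0.61 for Slc44a1 and by -0.34 for Pcyt2 on the log2 scale, by the interaction term of the model of both tissues.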

How the results depend on the processing

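Left-out libraries, other scalings and other tools changed these counts of members called. For diet in liver, 3 with all libraries (46.6% of all genes called) became 6 with library totals alone (60.1%), 5 with DESeq2 (48%), 5 in the 34 numbered libraries (44.4%) and 5 in those libraries with the replicate block (43.9%), and from 2 to 7 when one library was left out. Without one replicate number, calls at single times in liver fell from 9 to between 3 and 5 (7 to 12 without one library). Summed exon-bin counts in liver lack both control males of CT00, which leaves 1 control library there. At CT00 the log2 changes on bin counts were -0.77 for Slc44a1 (adjusted p = 0.0683) and -0.42 for Pcyt2 (0.45), and in the gene table of the same 34 libraries -0.80 (0.0414) and -0.45 (0.408). Control rhythm in liver gave 3 on bin counts and 3 in the gene table of those libraries (both chosen after seeing the data), and 3 to 6 without one replicate number. The difference in liver rhythm gave 0 to 1 without one library. Sex in liver gave 2 with DESeq2, 2 in the 34 numbered libraries, 0 without replicate 1 or 2, and 1 to 2 without one library. Sex by diet in liver gave 0 without replicate 1 or 2. Exon usage in liver gave 0 to 1 without one replicate number. Tissue by diet gave 4 without the first control male at CT08 (chosen after seeing the data). In the SCN, control rhythm gave 1 on bin counts. MCD rhythm gave 0 to 3 without one replicate number and 1 to 4 without one library. Sex gave 2 on bin counts, 0 without replicate 1 or 2, and 0 to 2 without one library. On bin counts 2059 genes were called for control rhythm in liver, 2059 for control rhythm in the SCN and 1303 for sex in the SCN. With the gene tables of all libraries these were 3611, 2378 and 1558. Apart from diet in liver, shares of all genes called are not set beside these counts of members. A changed count therefore cannot be told apart from a change in calling over all genes. The causes were not tested.

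Same-numbered libraries were not taken as pairs in the main tests, since the labels tie no number to a litter, batch or day. Yet 15 of 16 same-numbered pairs in liver and 9 of 16 in SCN correlated over 0.1. The median correlation was 0.36 for same-numbered and -0.23 for other-numbered libraries in liver, and 0.11 and -0.064 in SCN. Of 31 libraries in each tissue, 24 in liver and 19 in SCN correlated best with the library of their own number. The fit with the replicate block leaves out the control males at CT08, which carry no number. With it Chka (0.43), Pcyt1a (-0.12) and Chpt1 (-0.35) were called for diet in liver and Etnk1 (-0.12, adjusted p = 0.123) was not. Without the block, the same 34 libraries gave the same calls for these members (0.43, -0.12, -0.35 and -0.12, adjusted p = 0.00491, 0.0386, 0.0343 and 0.114). With the block 2 liver ratios were called by permutation, that of Pcyt2 over Pcyt1a (-0.34) and that of Chpt1 over Cept1 (-0.38, adjusted p = 0.0145, against 0.12 in the same libraries without the block).

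Directions reversed for these log2 diet changes. In liver they were Chkb on bin counts (-0.034) and in the high mt-Nd6 kind (-0.13), Cept1 with RLE scaling (-0.0020), DESeq2 (-0.0020) and in the low kind (-0.062), and, with library totals alone, Pcyt1a (0.15, called higher), Etnk1 (0.10, not called, against a called fall with TMM) and Etnk2 (0.10, not called). In the SCN they were Chka with limma-voom (0.0039) and Chkb on bin counts (-0.00066). Outside fits that left out one library or one replicate number, 178 of the counts of calls and control levels per kb stayed the same and 11 moved. The same meant equal or within 1.5 times for a count, and within the SD for a level. Slc44a1 and Pcyt2 were called for diet in liver with each library left out in turn.

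Leaving out replicates or libraries also turned the sign of members that were not called. In liver the ranges were -0.10 to 0.16 for Chkb and -0.025 to 0.034 for Cept1. In the SCN they were -0.073 to 0.066 for Chka, -0.077 to 0.11 for Chkb, -0.023 to 0.083 for Pcyt1a, -0.060 to 0.047 for Chpt1, -0.034 to 0.055 for Etnk1 and -0.30 to 0.0040 for Etnk2.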
